A study of Mus musculus with 4 samples.

Results

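Cytosolic ribosomal proteins are the protein part of the ribosome outside mitochondria, and their messages are among the most abundant in any cell. Members were all genes whose symbol in the platform annotation begins with Rpl or Rps and a number, together with Rpsa and the stalk proteins Rplp0, Rplp1 and Rplp2. Ribosomal protein S6 kinases and pseudogene symbols were left out. A gene counted only where a probe set was annotated to it alone, and its brightest such probe set, by the mean of the 4 arrays, stood for it. The rule found 48 of the 12393 genes measured in this way. They comprised 20 proteins of the small subunit, 22 of the large subunit and 6 paralogues, which are relatives with a gene of their own. Rplp1 had no probe set of its own and was not a member, and the same was true of Rpl5, Rpl23 and Rpl35a.

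The samples were CD8 T cells from the spleens of female C57BL/6 mice aged 8 to 12 weeks. Mice received an intraperitoneal injection of TCDD (2,3,7,8-tetrachlorodibenzo-p-dioxin) at 10 µg/kg, or DMSO as the solvent control, and were killed 24 h later. TCDD is a long-lived dioxin, and it binds and activates the aryl hydrocarbon receptor (AHR), a transcription factor. Each group had 2 arrays and, per the design text, 4 mice whose cell suspensions were pooled. Separate pools for the arrays of 1 group are not stated, so the p-values rest on array-to-array spread that may be technical. Cells were sorted to a purity above 99%, and the RNA was amplified before labelling. All values are log2 expression after RMA, a method that corrects background, normalises arrays and combines the probes of a probe set.

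Ribosomal proteins are made in near equal amounts, assembled with ribosomal RNA in the nucleolus and exported as subunits. Their messages carry a 5′ terminal oligopyrimidine (TOP) tract, a run of C and T that begins with a C at the first base, and growth signals through mTOR set how strongly such messages are translated. Resting T cells hold few ribosomes and build many when they are activated. Several of these proteins also act outside the ribosome. RPL22 is needed for the development of alpha-beta T cells, and RPL5 and RPL11 bind the p53 regulator MDM2.

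The sort was checked against marker genes. The defining genes of CD8 T cells were well measured, with means of 8.82 for Cd8a, 8.59 for Cd8b1 and 10.13 for Cd3d against a median of 6.01 over all probe sets. The 5 measured of 9 CD8 T cell markers summed to 44.82 and 47.52 on the TCDD arrays and to 47.15 and 48.33 on the DMSO arrays, and all 5 had lower means after TCDD. Cd8a differed by −0.73 (unadjusted limma p 0.04806) and Cd3g by −0.45, both without overlap. Values overlapped for Cd3e (−0.265), Cd8b1 (−0.07) and Cd3d (−0.055). The part of these marker differences in the differences below was not tested. Sums over the marker lists differed little between arrays for B cells (24.47 to 25.93) and CD4 T cells (13.17 to 13.79). The 5 myeloid genes summed to 32.60 and 33.84 after TCDD and to 31.36 and 33.31 after DMSO. Of these, Lyz2 was higher on both TCDD arrays (7.11 and 6.85 against 6.07 and 6.78), and the other 4 overlapped. Csf1r, with a mean of 8.16, was at 7.92 and 8.72 against 7.35 and 8.65. DMSO replicate 2 stood apart: the 4 neutrophil genes, all measured, summed to 29.88 there and to 22.52 to 24.38 on the other arrays. S100a8 was at 8.67 on that array and at 5.45 to 5.94 elsewhere, and the plasma cell gene Jchain was at 8.04 and at 5.48 to 6.60 elsewhere. The other plasma cell gene, Sdc1, was only slightly higher there, at 6.92 and at 6.62 to 6.79 elsewhere. In these sorted bulk samples, fewer cells of a type and less RNA per cell cannot be told apart.

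Ribosomal protein messages filled the top of the expression scale. Of the 48 genes, 34 had a mean of at least 11 and 30 a mean of at least 12, a level that 53 of all 12393 genes reached. Their median level was 12.62, against 6.41 over all genes. The median was 13.04 for small-subunit genes, 12.45 for large-subunit genes and 6.16 for paralogues. Levels of different probe sets also reflect how well each one binds, so these values rank probe sets rather than molecules. A total of 45 genes lay at or above the median of all probe sets.

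**Figure D1:**
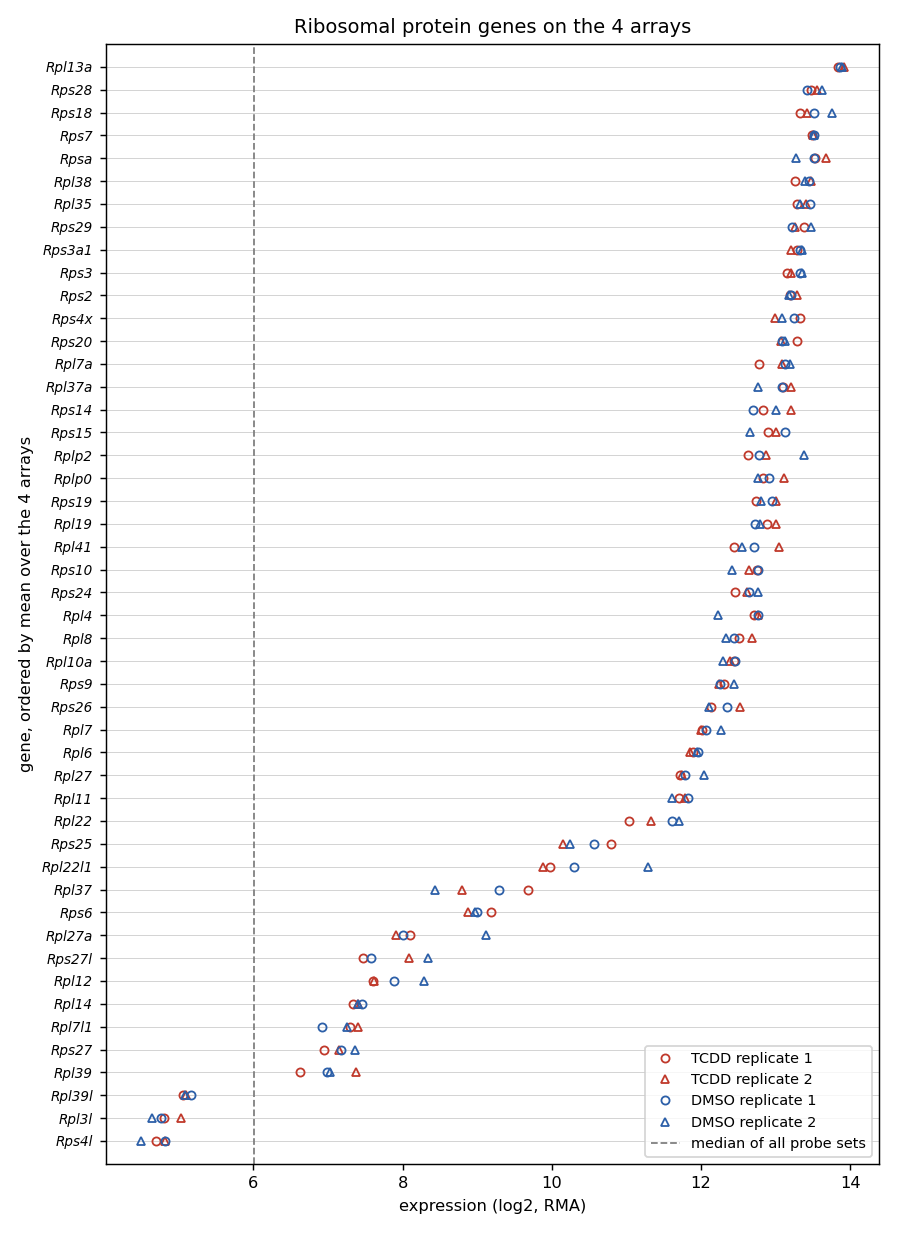
Expression of the 48 ribosomal protein genes (log2, RMA; vertical order by mean) on the 2 TCDD arrays (red) and the 2 DMSO arrays (blue), circles for replicate 1 and triangles for replicate 2. The dashed line is the median of all probe sets, 6.01; 34 genes sit at 11 or above and 3 paralogues lie below the line.

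Rpl13a had the highest mean of all 12393 genes. RPL13A, a large-subunit protein, is also known for its release from the ribosome after interferon-gamma, when it silences the translation of inflammatory messages. It was at 13.84 and 13.92 on the TCDD arrays and at 13.86 and 13.89 on the DMSO arrays, so the groups overlapped. Next came the small-subunit genes Rps28 (mean 13.52), Rps18 (13.505), Rps7 (13.502) and Rpsa (13.50). The Rps7 probe set had the narrowest range of the 48, with 13.49 and 13.50 after TCDD and 13.51 and 13.51 after DMSO. Dimmer Rps7 probe sets varied more: a second one of its own, with a mean of 10.997, had a range of 0.29, and one shared with other genes, with a mean of 10.01, had a range of 1.66.

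For probe sets annotated to ribosomal protein genes, shared ones included, ranges over the 4 arrays were narrower toward the top of the scale. Their median range was 0.22 for 44 probe sets at 13 or above and 0.29 for 61 between 12 and 13. It was 0.43 for 21 between 11 and 12, and 0.48 for 24 between 9 and 11. The order was less regular for the members alone, with 0.22, 0.34 and 0.265 in the upper bins from the top down. Other genes had 0.55 for only 3 genes at 13 or above and 0.35 for 20 between 12 and 13. They had 0.48 for 99 between 11 and 12, and 0.51 for 810 between 9 and 11. Of 37 genes with at least 2 probe sets at 9 or above, the brightest one had a narrower range than the median of the others for 26. For Rpl23, whose probe sets are all shared, the brightest was at 14.60 to 14.62 with a difference of 0.0, and another, with a mean of 13.39, differed by −0.485. A small range or difference of the brightest probe sets is therefore not taken here as a measure of how steady the message was. The reason for the narrower ranges was not tested, and the differences below carry that limit.

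At the other end, 3 paralogues were under 6.01, the median of all probe sets. Rpl39l, a paralogue known from testis, had a mean of 5.10 and values from 5.06 to 5.16. Rpl3l, a paralogue of heart and skeletal muscle, had a mean of 4.81, and Rps4l a mean of 4.70. RMA values this low do not separate weak expression from none. The other 3 paralogues were measured above that median: Rpl22l1 at a mean of 10.36, Rps27l at 7.87 and Rpl7l1 at 7.22.

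A further 8 genes of core ribosomal proteins had a mean under 11, from Rps25 at 10.44 down to Rpl39 at 7.00. Each had another probe set that was brighter and was annotated to it together with other genes, mostly copies or predicted genes. For Rps6, the substrate of S6 kinase downstream of mTOR, the probe set of its own had a mean of 9.005, and a probe set shared with a pseudogene had 14.20. The corresponding means were 7.155 and 13.495 for Rps27, and 7.00 and 13.31 for Rpl39, which lines the exit tunnel of the ribosome. The brighter values cannot be assigned to one gene. A low value of these 8 genes therefore describes 1 probe set and not the total message of the gene.

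**Figure D2:**
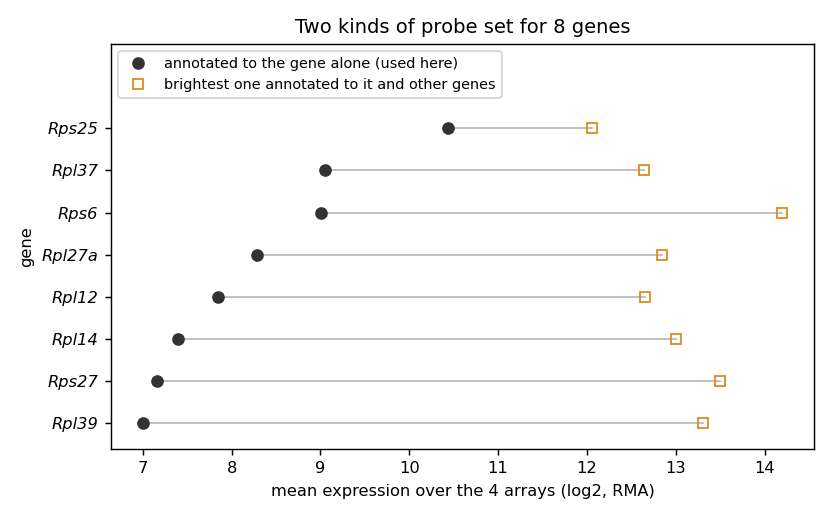
Mean expression over the 4 arrays (log2, RMA) for the 8 core ribosomal protein genes with a mean under 11. Filled circles are the probe set annotated to the gene alone and open squares the brightest one annotated to it and other genes; the squares lie between 12.06 and 14.20.

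The comparison of TCDD with DMSO asked whether the dioxin altered these messages within 24 h. No ribosomal protein gene passed the threshold. In the limma fit, adjusted by Benjamini-Hochberg across 22626 probe sets, 0 of 48 genes had an adjusted p below 0.05, and the array as a whole also gave 0%. The smallest adjusted p among the 48 was 0.9973 (limma). By unadjusted limma p below 0.05, 2 genes were lower after TCDD, Rpl22 and Rpl12, where 1.28% of all genes were, and 0 were higher, where 0.823% of all genes were. The unadjusted 95% limits of a gene reached between 0.26 and 1.08 to either side, with a median of 0.36, or 1.28-fold. The adjusted threshold asks for more: Rpl22, whose limits leave out 0, had an adjusted limma p of 0.9973.

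The median difference, TCDD minus DMSO, was −0.002 on the log2 scale, against 0.01 over all genes, with 24 genes below 0, 22 above and 2 at 0. Of the 48 genes, 40 differed by less than 0.25, a share of 83.3% against 86.9% of all genes. The TCDD arrays were both lower than either DMSO array for 13 genes, or 27.1%, where 12.0% of all genes did. They were both higher for 6 genes, or 12.5%, where 12.9% of all genes did. The values overlapped for the other 29. Among genes with a mean of at least 11, 10 of 34 members (29.4%) and 22 of 122 other genes (18.0%) were lower on both TCDD arrays.

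Small-subunit genes had the narrower spread. Their differences ran from −0.26 to 0.21 with a median of 0.0, and 6 of 20 (30.0%) were lower on both TCDD arrays and 1 (5.0%) was higher, against 12.0% and 12.9% of all genes. Rps18 had the lowest difference of the subunit. It was at 13.33 and 13.42 after TCDD and at 13.51 and 13.76 after DMSO, a difference of −0.26 (95% limits −0.60 to 0.08), and −0.135 without DMSO replicate 2. Its second bright probe set, with a mean of 13.34, differed by −0.02, and another, with a mean of 12.19, by −0.43. Rpsa, whose protein is also described as a laminin receptor, had the highest difference, with 13.53 and 13.68 after TCDD and 13.52 and 13.27 after DMSO. The groups did not overlap, although their closest values were 13.53 and 13.52, and the difference was 0.21, or 0.085 without DMSO replicate 2. Rps7 also counted among the genes lower on both arrays, at a difference of −0.015, so separation alone says little about size.

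The small-subunit genes with known disease or signalling roles showed small differences. RPS19 is the protein most often mutated in Diamond-Blackfan anaemia, an inherited failure of red cell production. Rps19 was at 12.74 and 13.01 after TCDD and at 12.95 and 12.81 after DMSO, a difference of −0.005. Rps26, another gene of that disease, differed by 0.10, and Rps24 by −0.175 with its groups apart (12.45 and 12.61 against 12.64 and 12.77). Of 19 listed genes of the disease 11 were measured, with differences from −0.22 to 0.105. Of these, 4 (36.4%) were lower on both arrays and 0 higher, against 12.0% and 12.9% of all genes. The 4 were Rps24, Rps27, Rps7 and Rpl27. Rps7 differed by only −0.015. Rpl27 differed by −0.185, but its other probe sets, with means of 11.585 and 11.513, differed by 0.02 and 0.145. Rps6 differed by 0.05, and the brightest probe set annotated to it and a pseudogene by −0.115. Rps27 had the lowest difference of the disease genes, with 6.95 and 7.14 against 7.17 and 7.36, a difference of −0.22. The brighter probe set annotated to Rps27 and its copy Rps27rt differed by −0.08 with overlapping values.

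Large-subunit genes had a wider spread, from −0.555 to 0.38, with a median of −0.03. The ends were Rpl27a and Rpl37, whose own probe sets were dimmer, with means of 8.28 and 9.05. The part of probe set level in the contrast between subunits was not tested. Of 22 genes, 6 (27.3%) were lower on both TCDD arrays and 3 (13.6%) higher, against the same shares of all genes. Rpl22 gave the smallest unadjusted p of all 48 genes (0.02183 by limma). It was at 11.04 and 11.33 after TCDD and at 11.61 and 11.70 after DMSO, and the groups did not overlap. The difference was −0.47 (95% limits −0.84 to −0.10), a 1.385-fold higher level after DMSO. Its second probe set, at 6.96 and 7.23 against 7.54 and 7.69, differed by −0.52. Within the arrays numbered 1 the difference was −0.57, and within those numbered 2 it was −0.37.

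The paralogue Rpl22l1 had the lowest difference of the 48. In mice, loss of RPL22 is known to raise Rpl22l1, whose message RPL22 binds. Here both genes were lower on both TCDD arrays. Rpl22l1 was at 9.98 and 9.88 after TCDD and at 10.30 and 11.29 after DMSO. The groups did not overlap, but most of the gap came from DMSO replicate 2. The difference was −0.865 (95% limits −1.75 to 0.02, unadjusted limma p 0.05332), and −0.37 without that array.

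Rpl12 and Rpl27a also had their highest value on DMSO replicate 2. RPL12 sits at the base of the stalk that elongation factors contact. Rpl12 was at 7.60 and 7.61 after TCDD and at 7.88 and 8.28 after DMSO, without overlap. The difference was −0.475 (95% limits −0.90 to −0.05, unadjusted limma p 0.03579), and −0.275 without DMSO replicate 2. Both probe sets annotated to Rpl12 and predicted genes were also lower on both TCDD arrays. The brightest differed by −0.11, and the other, at 10.32 and 10.52 against 10.65 and 11.66, by −0.735. Rpl27a was at 8.10 and 7.91 against 8.00 and 9.12, so the groups overlapped, and its difference of −0.555 became 0.005 without DMSO replicate 2. The probe set annotated to Rpl27a and 4 predicted genes, at 12.88 and 12.86 against 12.79 and 12.83, differed by 0.06.

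In the stalk itself, Rplp2 was at 12.63 and 12.87 after TCDD and at 12.78 and 13.38 after DMSO. The groups overlapped, and the difference was −0.33, or −0.03 without DMSO replicate 2. Rplp0, the scaffold of the stalk, differed by 0.135 with overlapping values. DMSO replicate 2 held the highest value of Rpl22l1, Rpl12, Rpl27a and Rplp2. These genes were named for their low differences, a choice that favours a high value on a DMSO array. Of all 48 genes, 17 were highest on DMSO replicate 2 and 16 on TCDD replicate 2. DMSO replicate 2 was also the array with the raised neutrophil and plasma cell genes. The part of those cells in the differences of Rpl22l1, Rpl12, Rpl27a and Rplp2 was not tested.

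**Figure D3:**
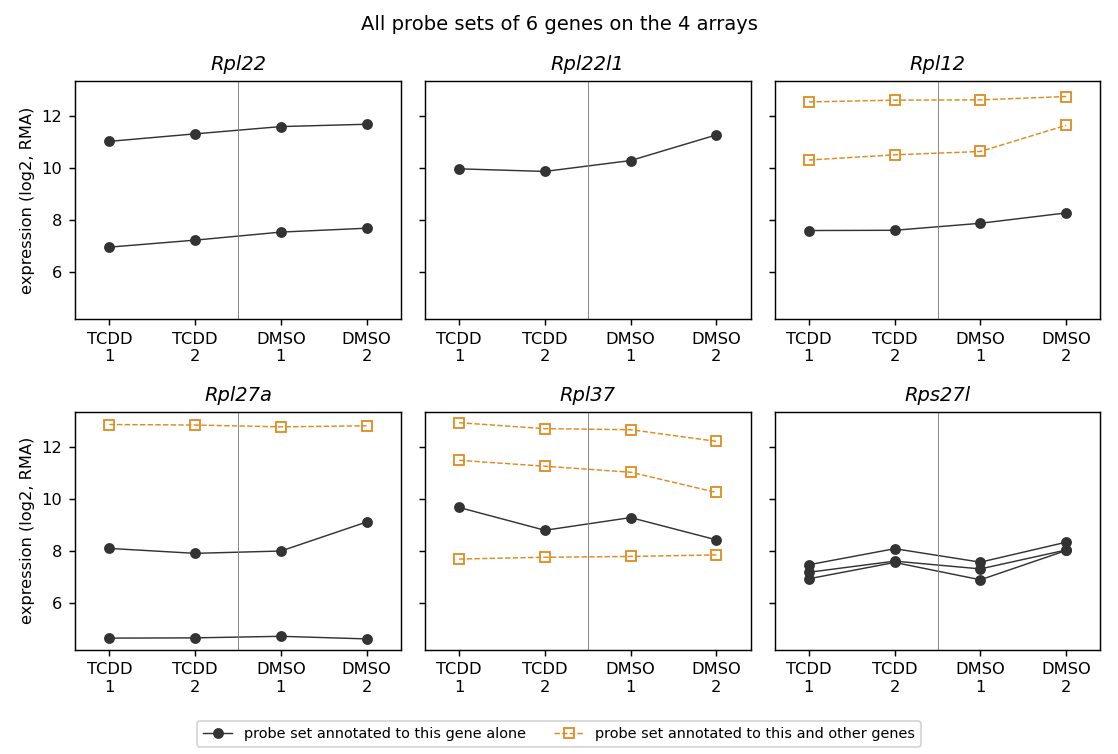
Expression (log2, RMA) of every probe set of 6 ribosomal protein genes on the 2 TCDD and 2 DMSO arrays. Filled circles are probe sets annotated to the gene alone and open squares those shared with other genes; both Rpl22 probe sets and all 3 Rpl12 probe sets are lower on both TCDD arrays, and the brightest Rpl27a set differs by 0.06.

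The large-subunit genes at the upper end were Rpl37, Rpl4, Rpl37a and Rpl8. Rpl37 was at 9.68 and 8.80 after TCDD and at 9.29 and 8.43 after DMSO. The groups overlapped, because the arrays numbered 2 were lower than those numbered 1 in both groups, by 0.87 on average. The difference was 0.38 (95% limits −0.70 to 1.46), with 0.39 within number 1 and 0.37 within number 2. Of 3 probe sets annotated to Rpl37 and its copy Rpl37rt, the brightest also differed by 0.38, the next by 0.735 and the dimmest by −0.095. The brightest and the next were higher on both TCDD arrays, and the dimmest was lower on both.

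Rpl4, whose protein lines the exit tunnel, differed by 0.245, but by −0.02 without DMSO replicate 2, which was at 12.23 against 12.71 to 12.77 elsewhere. Rpl37a was at 13.10 and 13.21 after TCDD and at 13.09 and 12.77 after DMSO, and its difference was 0.225, or 0.065 without DMSO replicate 2. A second Rpl37a probe set, with a mean of 11.94, differed by 0.015. Rpl8, a protein near the peptidyl transferase centre, was at 12.51 and 12.68 against 12.44 and 12.34, with a difference of 0.205 (95% limits −0.10 to 0.51). Rpl11, the MDM2-binding protein, stayed within 11.61 to 11.82 on all arrays and differed by 0.025. None of these 5 genes passed the limma threshold.

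Paralogues differed in direction. Rpl7l1, a relative of Rpl7, was at 7.29 and 7.40 after TCDD and at 6.92 and 7.26 after DMSO, a difference of 0.255 with no overlap, or 0.085 without DMSO replicate 1. Its second probe set differed by −0.03. Rps27l, a known p53 target, was at 7.47 and 8.09 against 7.57 and 8.34. All 3 of its probe sets were higher on the arrays numbered 2 in both groups, and their differences were −0.175, −0.21 and −0.28. Without DMSO replicate 2 the first of them was 0.21. The 3′ minus 5′ signal of the Gapdh control probe sets, a sign of RNA length, also went with the number: it was 5.35 and 5.27 on the arrays numbered 1 and 4.56 and 4.30 on those numbered 2. For Actb it was 3.61 and 3.69 against 3.34 and 3.52, a smaller gap. Its part in the values of Rps27l and Rpl37 was not tested. Rpl3l differed by 0.215, Rps4l by 0.095 and Rpl39l by −0.045, all at levels under that median.

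Where a gene had several probe sets, they did not always point the same way. Of 19 genes with at least 2 probe sets at or above the median level, 9 had differences of both signs and 10 of 1 sign. Rpl13a ranged from −0.485 to 0.005 over 4 probe sets, the lowest being at 12.23 and 13.00 after TCDD and 12.95 and 13.25 after DMSO. For Rpl41, one of the shortest proteins known, the range was −0.24 to 0.115. Rps24 ranged from −0.225 to 0.19 over 6 probe sets. A further 102 probe sets were annotated to a ribosomal protein gene together with others. Their median difference was −0.04, with 27 lower on both TCDD arrays and 13 higher, where 12.0% and 12.9% of all genes were. By limma 0 were called at an adjusted p below 0.05. By unadjusted p 3 were lower and 0 higher, where 1.28% and 0.823% of all genes were. Some genes have several of these shared probe sets, such as 9 for Rps6 and 5 for Rpl14. The counts are therefore not numbers of genes, whereas the shares of all genes rest on 1 probe set per gene.

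The spread between arrays of the same group was similar in size to the spread between groups. Among the 48 genes the median size of the difference between the TCDD arrays was 0.12, and between the DMSO arrays it was 0.175. The median size of TCDD minus DMSO was 0.13 within the arrays numbered 1 and 0.215 within those numbered 2. In both numbers 15 genes were lower after TCDD and 8 higher, and 24 differed in opposite directions. The matching shares of all genes are not given here, so these counts cannot be read as particular to ribosomal proteins. Across the 48 genes the 2 sets of differences had a Pearson correlation of 0.178 and a Spearman correlation of 0.15. These are descriptions over genes that share the same 4 arrays.

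**Figure D4:**
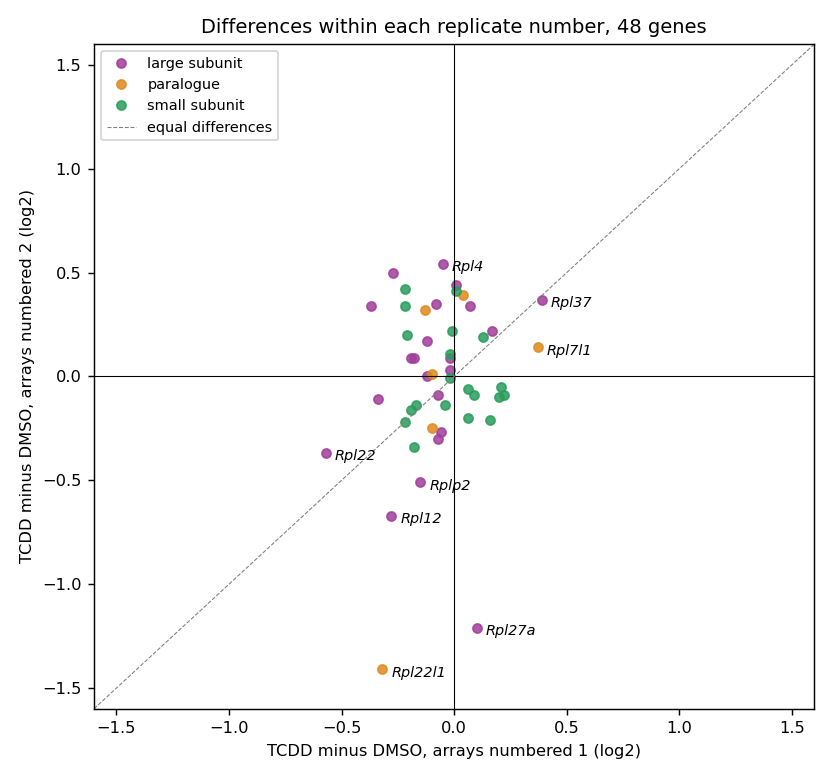
TCDD minus DMSO (log2) for each of the 48 genes within the arrays numbered 1 (horizontal) and within those numbered 2 (vertical), coloured by subunit; the dashed line marks equal differences. Rpl22 lies low on both axes (−0.57 and −0.37), while Rpl27a (0.10 and −1.21) and Rpl22l1 (−0.32 and −1.41) are low mainly in number 2.

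Promoter sequences were read for motifs because AHR binds DNA at elements with the core GCGTG. RefSeq promoters of the mouse build GRCm38.p6, which hold 250 bases before and 50 from the start of transcription onwards, were given for 42 of the 48 genes. The letters GCGTG, on either strand, occurred in 27 of the 42 (64.3%), in 50.2% of the 9882 genes of the array with a promoter and in 35.2% of all 27025 genes with one. The 27 genes with the letters had a median difference of 0.0 (range −0.865 to 0.38), and the 15 without had −0.045 (range −0.555 to 0.255). CCGGAAG, a core bound by ETS factors, occurred on either strand in 21 of the 42 and in 16.4% of the genes of the array. TATAAA occurred on either strand in 14.3% and 11.9%.

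A C followed by 4 bases that are each C or T, the form of a TOP tract, stood exactly at the annotated start in 8 of the 42 genes (19.0%) and in 3.04% of the genes of the array. Such a run began within 5 bases of the start in 47.6% and 23.4%. The 8 genes had a median difference of −0.055, from −0.33 to 0.105, and the 34 others one of 0.0. The windows below run from 25 bases before the annotated start to 20 bases from it onwards, and are shown for a typical TOP gene and for genes with lower means after TCDD. Capitals before the start mark GCGTG, and capitals from the start on mark the longest run of C and T of at least 5 bases. Rpl22 has a pair of annotated starts, and its first holds neither.
Rps18, chr17:33955646-33955690, minus strand: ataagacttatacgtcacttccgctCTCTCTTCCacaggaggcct
Rplp2, chr7:141447626-141447670, plus strand: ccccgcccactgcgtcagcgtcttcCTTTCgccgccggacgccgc
Rpl12, chr2:32961687-32961731, plus strand: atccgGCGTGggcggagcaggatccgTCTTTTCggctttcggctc
Rpl22l1, chr3:28805483-28805527, plus strand: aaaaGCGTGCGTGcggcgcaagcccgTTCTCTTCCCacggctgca
Rpl22, chr4:152325701-152325745, plus strand: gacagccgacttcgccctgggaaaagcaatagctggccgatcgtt

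In Rps18 the run covers 9 bases from the first, and in Rpl22l1 it covers 10 bases from the second. Over its 300 bases, the Rpl22l1 promoter held GCGTG 4 times on the 2 strands together, of which 2 overlap in the window shown. Rpl12 held it once, and Rpl22 held it at neither start. A match of letters is a description and no evidence of binding, and the absence of a match says only that the letters are not in this window.

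Other messages of the translation machinery were set beside the ribosomal proteins. Of 14 measured genes in a list of further TOP messages, mostly elongation and initiation factors, 11 (78.6%) were lower on both TCDD arrays and 0 higher, where 12.0% and 12.9% of all genes were, with a median difference of −0.283. The median was −0.165 within number 1 and −0.37 within number 2. DMSO replicate 2, the array with the raised neutrophil and plasma cell genes, held the highest value for 10 of the 14, and without it, an alternative chosen after seeing the data, the median was −0.223. The 5 measured CD8 T cell markers had lower means after TCDD as well, though 3 of them overlapped between the groups. The part of either in this list was not tested. The elongation factor gene Eef1b2 was at 11.49 and 11.53 after TCDD and at 11.71 and 11.90 after DMSO, and Eif3e at 12.05 and 11.94 against 12.24 and 12.53. Both were named after their values were seen. The nucleolar protein gene Npm1 had the lowest difference, −0.935 (10.55 and 9.76 against 10.70 and 11.48), followed by Naca at −0.725, and Hnrnpa1 had the highest, 0.415. No gene of the list was called by limma at an adjusted p below 0.05, and 3 were lower by unadjusted p. The list was compared with the ribosomal proteins by these counts only.

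Genes that build or regulate ribosomes showed no common direction. Of 45 measured biogenesis factors 7 were lower and 7 higher on both TCDD arrays (15.6% each, against 12.0% and 12.9% of all genes), with a median of 0.06. Polr1c, a subunit of RNA polymerases I and III, had the highest difference, 0.585 (9.85 and 9.62 against 9.39 and 8.91). Npm1, which is counted in the TOP list as well, had the lowest, −0.935. It was followed by Nop58 at −0.665 (5.07 and 4.83 against 5.21 and 6.02) and Imp3 at −0.60 (6.98 and 6.61 against 7.13 and 7.66). Among 10 regulators of TOP messages and mTOR signalling 2 were lower and 0 higher on both TCDD arrays, where 12.0% and 12.9% of all genes were. Counts this small on 10 genes do not set the list apart. The 2 were Cnbp, which encodes a protein that binds TOP messages, at −0.835, and Myc, a driver of ribosome production, at −0.52. Mtor itself differed by 0.32 with overlapping values. The 74 mitochondrial ribosomal protein genes had a median level of 7.72 and a median difference of 0.02, with 14 lower (18.9%) and 7 higher (9.46%), against 12.0% and 12.9% of all genes. Fau, which encodes a small-subunit protein under another name, differed by 0.04. No gene of these lists was called by limma after adjustment.

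**Figure D5:**
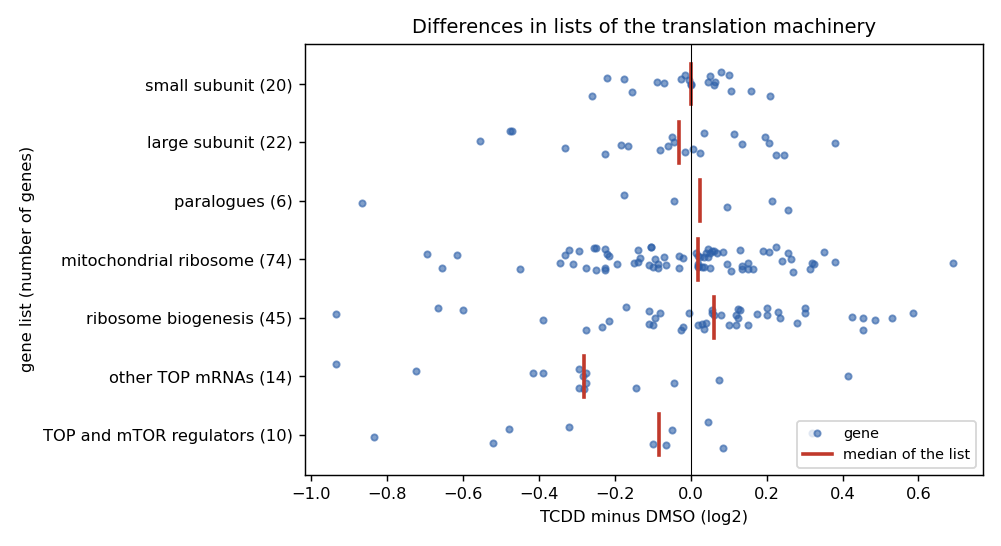
TCDD minus DMSO (log2) for the genes of 7 lists, 1 point per gene, with the median of each list as a red bar; vertical jitter has no meaning. The small and large subunits centre near 0 (medians 0.0 and −0.03), and the further TOP messages centre at −0.283.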

How the data were processed

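The authors deposited 1 table of log2 expression values for 22690 probe sets on 4 arrays, made with RMA per the submitters' processing notes. Those notes give no RMA version. Values between 3.09 and 14.62 mark the scale as log2. RMA makes arrays alike in distribution, so a change shared by most messages would not show. Genes were named through the platform annotation, updated by Entrez identifier in RefSeq tables. In all 20380 probe sets had 1 symbol, 691 several and 1555 none. After removal of 64 controls, 22626 probe sets were fitted with limma 3.58.1 in R 4.3.3 (no covariate, no filter) and adjusted by Benjamini-Hochberg. The fit was tested on simulated data. With 2 arrays per group an exact permutation p is at least 0.3333, so none was run. Genes described singly were the 6 members with the largest differences on each side, the 5 highest and 5 lowest levels, the 5 widest ranges, paralogues, stalk proteins, Rpsa, members with known roles or discordant probe sets, and the largest differences in each list. Members and lists were chosen with earlier results of these data known. Alternatives covered normalisation, filters, probe set choice, the replicate number as a block and each array left out.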

Additional observations from a re-analysis of the deposited data

How the results depend on the processing

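No ribosomal protein gene was called by limma at an adjusted p below 0.05 under any of 11 alternatives. Their median difference, −0.002, ran from −0.047 without DMSO replicate 2 to 0.012 after a further quantile normalisation. With the replicate block it was −0.002 and 0 genes were called; the labels do not say that the numbers pair the arrays. The number of ribosomal protein genes lower on both TCDD arrays, 13, fell to 10 after the further quantile normalisation. It was 12 when each gene was taken as the average over its probe sets. Leaving out probe sets whose names end in _x_at or _s_at gave 11 of 43 genes. The number became 19 to 23 with 1 array left out (23 without TCDD replicate 2, 21 without DMSO replicate 2), since fewer arrays are compared. Matching shares of all genes with 1 array left out are not given here, so these rises cannot be read as particular to ribosomal proteins. An alternative chosen after seeing the data added the 102 probe sets annotated to several genes. With them, 40 of 150 probe sets were lower on both TCDD arrays, against 13 of 48 before. Some genes have several of these probe sets, so 40 is not a number of genes. Rpl39 was 0.013 after quantile normalisation. Of 18 genes followed, 7 turned sign when 1 array was left out: Rpl27a (−1.115 to 0.005), Rpl37 (−0.06 to 0.82), Rpl39 (−0.39 to 0.36), Rpl4 (−0.02 to 0.51), Rplp0 (−0.005 to 0.275), Rps27l (−0.56 to 0.21) and Rps4l (−0.07 to 0.26). Rpl22 stayed between −0.615 and −0.325. Array number limits every value, and probe sets shared between gene copies cannot be assigned.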
